A study of Mus musculus with 14 samples.

Results

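The genes described here encode the proteins of the cytoplasmic ribosome. They were taken from the array by symbol, as every gene whose name begins with Rpl or Rps and a digit or reads Rplp0, Rplp1 or Rplp2, with the ribosomal protein S6 kinases left out. The rule found 48 of the 12393 named genes: 22 proteins of the large subunit, 19 of the small subunit, and 7 copies of such genes (Rpl22l1, Rpl39l, Rpl3l, Rpl7l1, Rps27l, Rps4l and the pseudogene Rps15a-ps6). The 48 genes had 99 probe sets, 22 genes having several and 26 having 1, and each gene was represented by the probe set of highest mean level. A further 102 probe sets carried a ribosomal protein symbol together with other symbols, and 53 symbols occurred only there, so that the list is not the whole ribosome and those genes are not named.

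The samples were epididymal fat, the fat pad beside the epididymis, of male ICR mice aged 3 weeks, 1 array per sample. Mice of the CC group (n = 5) had dams that ate chow freely in pregnancy and during suckling. Mice of the UC group (n = 5) had dams restricted to 50% of the food of pregnancy-day matched controls and then fed freely during suckling. Mice of the UU group (n = 4) had dams whose 50% restriction went on through suckling. The comparison of UC with CC asks about restriction in the womb alone, UU with CC about restriction in the womb and in suckling, and UC with UU about the suckling period after a restricted pregnancy. The labels do not say which mice were littermates, so each sample counted as a separate animal in every p-value, and these measure only the spread between these samples.

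A cytoplasmic ribosome joins a small subunit, which reads the mRNA, to a large subunit, which forms the peptide bond. Each subunit is built in the nucleolus from ribosomal RNA and 1 copy of most of its proteins, so cells keep the mRNAs of these proteins in a near-constant proportion to each other. Most of these mRNAs begin with a tract of pyrimidines (C and T in the DNA) at the cap, through which the mTOR kinase and the protein LARP1 tie their translation to nutrient supply. That control acts on how often an mRNA is translated and on its stability, and an array reads only the mRNA level.

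The start of the gene is where that tract lies, and it is shown here for some of the genes on which the results below turn. RefSeq promoter windows of build GRCm38.p6 were matched by symbol for 41 of the 48 genes. Each line gives 30 bases in the direction of transcription, 15 before and 15 after the annotated start, with the tract in capitals. A tract was called where a C followed by at least 4 bases of C or T began within 5 bases of the start.
Rps9, chr7:3704026-3704055, plus strand: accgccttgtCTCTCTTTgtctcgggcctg
Rps10, chr17:27635230-27635259, minus strand: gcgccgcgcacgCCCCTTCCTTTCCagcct
Rplp2, chr7:141447636-141447665, plus strand: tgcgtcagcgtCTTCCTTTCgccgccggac
Rpl7a, chr2:26910792-26910821, plus strand: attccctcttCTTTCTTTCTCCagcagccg
Rpl27a, chr7:109519180-109519209, plus strand: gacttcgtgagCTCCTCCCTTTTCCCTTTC
Rps18, chr17:33955651-33955680, minus strand: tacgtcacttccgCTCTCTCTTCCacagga
Rpl22l1, chr3:28805493-28805522, plus strand: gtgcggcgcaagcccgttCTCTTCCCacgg
Rpl11, chr4:136053379-136053408, minus strand: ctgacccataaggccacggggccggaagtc
Rps15, chr10:80292416-80292445, plus strand: cccggcagagctcgcgataactgcgcaagc
Rps9, Rps10, Rplp2, Rpl7a, Rpl27a, Rps18 and Rpl22l1 had the tract in this window, and Rpl11 and Rps15 had not. Of other genes described below, Rps19, Rps25, Rpl10a and Rps3 had no tract either. A tract was found for 19 of the 41 matched genes (46.3%), against 16.3% of the 17491 protein-coding genes of the table and 18.4% of the 6012 of those tested here. The letters CCGGAAG, the core of the sites that ETS family factors such as GABP bind, were found on either strand of the 300-base window (250 before the start and 50 after) in 20 of the 41 genes (48.8%), against 12.9% of all the genes and 20.8% of those tested. The YY1 core AAGATGGC was found in 4 genes (9.76%: Rpl13a, Rpl22, Rpl7l1 and Rps27), against 3.57% and 5.81%. None of those 4 was among the 20 with CCGGAAG. A match is a run of letters in an annotated window and not a measured site, and a RefSeq start need not be the start used in fat.

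Signals are linear values that the submitters' software scaled to the same trimmed mean on every array, and levels are log2(signal + 32), so a difference of 1 is about a doubling. Genes among the dimmest 40% by mean level were left out, which left 7436 genes tested and 44 of the 48 described here: all 22 of the large subunit, all 19 of the small subunit and 3 copies (Rpl22l1, Rpl7l1 and Rps27l). The lowest mean level tested was 9.30, a signal of 599. Just inside were Rpl14, at a mean level of 9.45, and Rpl12, at 9.72. Just outside were Rpl39l, at 8.38, and Rpl3l, at 8.02, and Rps4l (7.91) and Rps15a-ps6 (7.01) lay lower. Rpl3l is the form of Rpl3 made in skeletal and heart muscle, and its signals were 260.5 ± 40.6 in CC (SD, n = 5), 201 ± 81.7 in UC (n = 5) and 256 ± 74 in UU (n = 4). Rpl39l, a testis form of Rpl39, ran from 34.7 to 1229.9 over the 14 arrays, and Rps4l from 29.3 to 1041. These low genes had no test.

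2 properties of the arrays were set beside the results. The log2 ratio of 3′ over 5′ control probe sets for Gapdh and Actb, a measure that is higher when RNA is broken or copied in part, was 0.71 ± 0.33 in CC (SD, n = 5), 1.22 ± 0.36 in UC (n = 5) and 1.15 ± 0.64 in UU (n = 4), and was highest in UU replicate 3 (2.10), UC replicate 1 (1.63) and UC replicate 4 (1.59). Summed signals of 9 epididymal epithelium markers ran from 2501 to 166327 in CC, 3036 to 135596 in UC and 43260 to 139567 in UU, with CC replicates 2 and 4 and UC replicates 2 and 5 low. Sums of 13 macrophage markers were 44134 to 128078 in CC, 42196 to 109723 in UC and 22537 to 44529 in UU, and those of 10 adipocyte markers 218178 to 360138, 219559 to 404351 and 147973 to 258384. Sums of 14 liver markers were 37663 to 75730 in CC, 25857 to 155817 in UC, highest in UC replicate 2, and 36591 to 50260 in UU. Those of 12 skeletal muscle markers were 2550 to 30736 in CC, 3388 to 5395 in UC and 2946 to 5503 in UU. The high muscle sums were those of CC replicates 2 (30736) and 5 (29122). No marker was listed at 0. In bulk tissue, fewer cells of a type and less RNA per cell cannot be told apart.

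In none of the 3 comparisons did a ribosomal protein gene pass the test. With limma and Benjamini-Hochberg adjustment over all 7436 genes at 0.05, 0 of 44 were called in UC against CC, where 0% of all genes were called, and 0 of 44 in UU against CC, also with 0% of all genes called. In UC against UU 0 of 44 were called beside 60 of all genes (0.807%; 51 higher and 9 lower in UC), a count that fell to 0 of all genes without UC replicate 2, UC replicate 4 or UU replicate 1. The smallest adjusted p of a ribosomal protein gene was 0.488 (Rps25) (UC against CC), 0.176 (Rps20) (UU against CC) and 0.152 (Rps15) (UC against UU). The median standard error of a difference was 0.20 between UC and CC and 0.22 in both comparisons with UU, so these arrays could not resolve small differences, and a p above the threshold does not show equal levels.

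As a group the genes had a median log2 difference of -0.10 in UC against CC, beside -0.00 over all genes tested, with 19 genes above 0 and 25 below. In UU against CC the median was 0.17, beside 0.05 over all genes, and 28 of 44 lay above 0 (63.6%, against 55.4% of all genes). In UC against UU it was -0.20, beside -0.06, and 36 of 44 lay below 0 (81.8%, against 56.7% of all genes). The 2 comparisons with CC share the CC arrays, and UC and UU each enter 2 comparisons, so these medians are not independent of each other. Setting the array medians equal moved the all-gene median of UC against UU from -0.06 to 0.08 and that of the ribosomal protein genes from -0.20 to -0.06.

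Single arrays carried much of these medians. Without UC replicate 1 the median of UC against CC was -0.20, and without UC replicate 2 it was -0.05. Without UU replicate 1 the median of UU against CC was 0.03 with 24 of 44 genes above 0, and without UU replicate 3 it was 0.26 with 40 of 44 above 0. It was 0.11 without CC replicate 3, 0.10 without CC replicate 4 and 0.05 after quantile normalization. For UC against UU the median was -0.11 when UU replicate 1 was left out, -0.32 when UU replicate 3 was, and -0.06 with array medians set equal.

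The subunits and the copies are given apart. Of the 22 large subunit genes 7 lay above 0 and 15 below in UC against CC (median -0.16), 12 above and 10 below in UU against CC (0.02), and 3 above and 19 below in UC against UU (-0.18). Of the 19 small subunit genes 9 lay above 0 and 10 below in UC against CC (median -0.11), 14 above and 5 below in UU against CC (0.22), and 2 above and 17 below in UC against UU (-0.26). The 3 copies lay at 0.25 to 0.43 in UC against CC and at 0.09 to 0.35 in UC against UU, all above 0, and at -0.10 to 0.20 in UU against CC, 2 above 0 and 1 below. The difference between subunits was not tested.

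**Figure D1:**
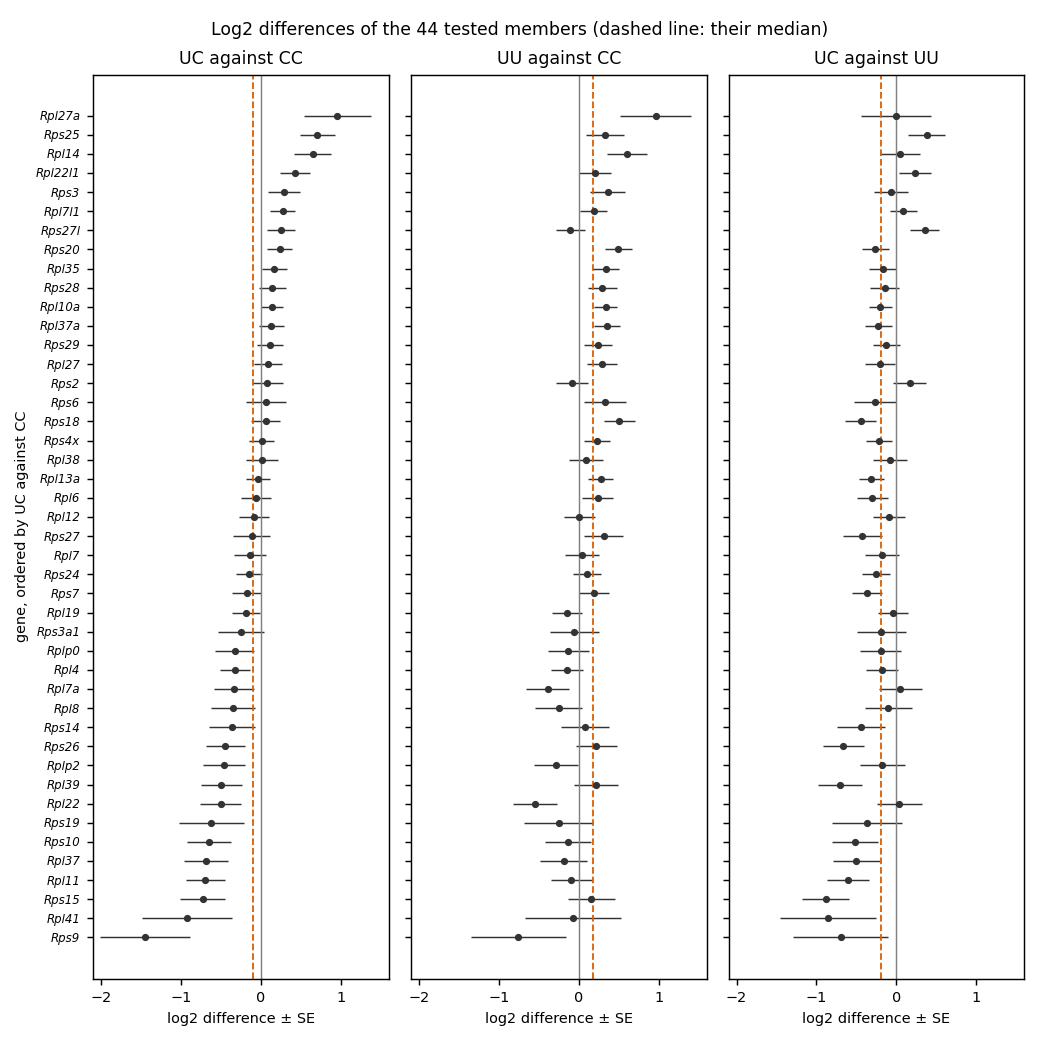
Log2 difference of each of the 44 tested genes (point) with its standard error (line) in the 3 comparisons, genes in the order of UC against CC, with the dashed line at the median of the 44. The medians lie at -0.10, 0.17 and -0.20, and the points run from -1.45 (Rps9) to 0.96 (Rpl27a) in UC against CC.

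In UC against CC the genes spread in both directions. At an unadjusted limma p under 0.05, 4 genes were higher (9.09%, against 4.76% of all genes) and 5 lower (11.4%, against 3.99%). The 5 lower genes were Rpl11, Rps15, Rps9, Rpl37 and Rps10, and the 4 higher ones Rps25, Rpl14, Rpl27a and Rpl22l1. In 1 gene, Rpl11, every UC sample lay below every CC sample (2.27%, against 0.78% of all genes), and in none did every UC sample lie above (against 1.01%).

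Rpl11 sits with Rpl5 and the 5S RNA in the central protuberance of the large subunit, and when free of the ribosome it binds Mdm2, the inhibitor of p53. Rpl11 signals were 18436, 13768, 12441, 14922 and 22756 in CC, 8465, 9831, 12167, 8413 and 11173.5 in UC and 23601, 13943, 8461 and 18631 in UU. The highest UC sample lay just under the lowest CC sample, while UU spanned both groups. The log2 difference was -0.70 ± 0.24 (SE; limma adjusted p = 0.518) (UC against CC), -0.09 (UU against CC) and -0.61 ± 0.26 (UC against UU). With the 3′ over 5′ ratio as a covariate the first of these was -0.30.

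Rps9, a small subunit protein at the entry of the mRNA channel, had the widest gap between UC and CC among the 44 genes. Its signals were 17067, 13467, 6319.5, 11455 and 20834 in CC, 2758.5, 3857, 6191, 3496 and 9642 in UC and 19211, 9296, 1441 and 12775.5 in UU. CC was mostly high and UC mostly low, but the lowest CC sample and the highest UC sample crossed, and UU held both the second highest sample of all and the lowest. The difference was -1.45 ± 0.56 in UC against CC (limma adjusted p = 0.518) and -0.75 ± 0.59 in UU against CC. With the ratio as a covariate these were -0.42 and 0.13, and without UU replicate 3 UU against CC was 0.04. The other Rps9 probe set above the filter gave -0.40 ± 0.26 in UC against CC and 0.20 ± 0.28 in UU against CC.

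Rps15 lies in the head of the small subunit, near the decoding site. Its signals were 15146, 12102, 9260.2, 9473.5 and 12379 in CC, 5746, 5860.5, 7240.5, 6502 and 10004 in UC and 23015.5, 12636, 6158 and 15102 in UU. UC lay low apart from replicate 5, which passed the 2 lowest CC samples, and UU held the highest sample of all beside replicate 3 at the level of UC. The difference was -0.73 ± 0.28 in UC against CC (limma adjusted p = 0.518), 0.16 ± 0.30 between UU and CC, and -0.89 ± 0.30 in UC against UU (adjusted p = 0.152). Without UU replicate 3 UU against CC was 0.51, and UC against UU was -1.24 at a limma adjusted p of 0.0492. The latter was the 1 call of a ribosomal protein gene in a group comparison under any alternative. The share of all genes called in that fit is not given here, so the call cannot be read against it. The ratio as a covariate made UC against CC -0.32 and UU against CC 0.51.

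Rps10, which binds near the mRNA entry and is altered in some families with Diamond-Blackfan anaemia, had a difference of -0.65 ± 0.27 in UC against CC on its brightest probe set. Its probe sets above the filter ran from -0.93 to -0.05 in UC against CC and from -0.32 to 0.59 in UU against CC. Its mean signals were 25294 ± 5476 in CC (SD, n = 5), 16024 ± 3141 in UC (n = 5) and 24955 ± 10833 in UU (n = 4), and the UC range (13112 to 21094) crossed that of CC (20523 to 31305) by 1 UC sample. Rpl37, a zinc-binding protein of the large subunit, had -0.69 ± 0.28 in UC against CC and -0.19 ± 0.29 in UU against CC. Its signals were 3082 to 6489.5 in CC, 2137 to 4052 in UC and 2193 to 6553 in UU, so the groups overlapped. UC against CC with the ratio as a covariate was -0.18 for Rps10 and -0.33 for Rpl37.

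Among the genes with higher values in UC, Rps25 had the smallest unadjusted p. Rps25 is a small subunit protein needed for initiation at several viral and some cellular internal entry sites. Its signals were 1154, 869, 1541, 1362 and 771 in CC, 2569.8, 1158, 1734, 2195 and 1746 in UC and 1668, 1339, 1415 and 1192 in UU. UC replicates 1, 3, 4 and 5 lay above all CC samples and UC replicate 2 lay among them. The difference was 0.70 ± 0.22 (limma adjusted p = 0.488) in UC against CC and 0.33 ± 0.24 in UU against CC.

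Rpl14, a large subunit surface protein, was among the dimmest of the genes tested. Its signals were 439, 576.5, 536, 390.0 and 574.5 in CC, 682, 512, 1077, 1053 and 812 in UC and 875.5, 690.1, 1042 and 564.5 in UU. All but 1 UC sample and all but 1 UU sample lay above the CC samples. The difference was 0.65 ± 0.23 in UC against CC and 0.60 ± 0.25 in UU against CC, with limma adjusted p = 0.518 and 0.247.

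Rpl27a, a large subunit protein near the peptidyl transferase centre, had the largest value above 0. Its signals were 8975, 9374, 9037, 6608 and 5533 in CC, 28301, 12657, 8339.7, 27154 and 9475 in UC and 7134, 14810.5, 39069.6 and 12586.5 in UU. The 3 highest samples, UU replicate 3 and UC replicates 1 and 4, were the 3 arrays of highest 3′ over 5′ ratio, and of the other 6 UC and UU samples 2 lay within the CC range and 4 above it. The difference was 0.96 ± 0.42 in UC against CC and 0.96 ± 0.44 in UU against CC (limma adjusted p = 0.554 and 0.294). With the ratio as a covariate these were 0.23 and 0.33, and without UU replicate 3 UU against CC was 0.50.

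In UU against CC the values of lowest p lay above 0. At an unadjusted limma p under 0.05, 6 genes were higher (13.6%, against 8.63% of all genes): Rps20, Rps18, Rpl14, Rpl10a, Rpl27a and Rpl37a. None was lower (0 of 44, against 7.75% of all genes). In 4 genes (Rps3, Rps20, Rps18 and Rpl10a) every UU sample lay above every CC sample (9.09%, against 4.71% of all genes), and in 0 every UU sample lay below (against 3.63%). 3 of these 4 are small subunit proteins, and each of the 4 is described next.

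Rps20, of the small subunit head, had signals of 48739, 48856, 49390.5, 38276 and 40855 in CC, 66696, 44705, 47326, 58419 and 50025 in UC and 74579.8, 56184, 72217 and 53479 in UU. The lowest UU sample lay above the highest CC sample, and UC overlapped both groups. The difference was 0.50 ± 0.17 in UU against CC (limma adjusted p = 0.176) and 0.23 ± 0.16 in UC against CC.

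Rps18, which lies beside the P site in the same head, had signals of 49371.5, 42588, 51314, 36804 and 47065.5 in CC, 64015, 40793, 44466, 49831 and 39716 in UC and 93665, 56625, 58992 and 54149 in UU. UU replicate 1 stood far above the other UU samples, which themselves lay just above CC. The difference was 0.51 ± 0.19 in UU against CC (adjusted p by limma = 0.22) and -0.45 ± 0.19 in UC against UU. Its 3 probe sets above the filter gave -0.08 to 0.51 in UU against CC and -0.45 to -0.20 in UC against UU, the brightest at the far end of both ranges.

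Rpl10a forms the stalk of the large subunit at the exit of the transfer RNA. Its signals were 34471.5, 36422, 35757, 27920.3 and 35938 in CC, 46288, 32398, 35883, 37791 and 35709.9 in UC and 47083, 42623, 39763 and 42699 in UU. The UU samples lay in a narrow band above all CC samples, and 4 of 5 UC samples lay below all UU samples. The difference was 0.34 ± 0.14 in UU against CC (limma adjusted p = 0.256) and -0.20 ± 0.14 in UC against UU. This gene had the lowest spread within groups of the 44, a residual SD of 0.16.

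Rps3 lies at the mRNA entry of the small subunit and has a reported second role in DNA repair. Its signals were 55454, 49844, 52144, 37012 and 47767.5 in CC, 97674, 45729, 55368, 64703 and 43708 in UC and 55819.8, 64869.9, 71898 and 55720.0 in UU. The lowest UU sample exceeded the highest CC sample by a small margin, and UC held the highest sample of all and the second lowest. The difference was 0.36 ± 0.22 in UU against CC (limma adjusted p = 0.399) and 0.29 ± 0.20 in UC against CC. Rpl37a, of the large subunit, had 0.36 ± 0.17 in UU against CC, and its ranges of signals in CC (42639 to 53274.5) and UU (53051 to 74788) crossed by 1 CC sample.

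In UC against UU, no gene was higher at an unadjusted limma p under 0.05 (0 of 44, against 9.17% of all genes) and 5 were lower (11.4%, against 8.74%): Rps15, Rps26, Rpl39, Rpl11 and Rps18. The groups overlapped in every one of the 44 genes, where 3.5% of all genes had UC wholly above UU and 2.5% had UC wholly below. Rps26 lies at the mRNA exit of the small subunit, and its signals were 36363, 23298, 35945, 21805 and 37882 in CC, 28905, 15062, 26348, 22454 and 20979.5 in UC and 53326, 32836, 23720.5 and 36864 in UU. UU replicates 1, 2 and 4 lay above every UC sample and UU replicate 3 lay among them, and the difference was -0.66 ± 0.25 (limma adjusted p = 0.202). Rpl39 lines the tunnel through which the new peptide leaves, and its signals were 1690.5, 2042, 2024, 2499.8 and 2195 in CC, 717, 1588, 1743, 1191 and 2805 in UC and 2475, 2262.5, 2206 and 2736 in UU. UC replicate 1 was the lowest of all samples and UC replicate 5 the highest, so that UC spanned the UU group. The difference was -0.71 ± 0.27 in UC against UU (limma adjusted p = 0.206) and -0.49 ± 0.26 in UC against CC.

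Arrays of the same group differed in the mean level of these genes. The mean over the 44 genes of the level minus the gene's own mean over all arrays was 0.50 in UU replicate 1, where 41 of 44 genes lay above their mean, and 0.18 in UU replicate 4 and 0.07 in UU replicate 2. It was -0.29 in UU replicate 3. In UC it was 0.14 in replicate 1 and -0.31, -0.08, -0.19 and -0.12 in replicates 2 to 5, with 39 of 44 genes below their mean in replicate 2. In CC it was 0.19, 0.01, -0.02, -0.19 and 0.10. The group means were 0.02 ± 0.14 in CC (SD, n = 5), -0.11 ± 0.16 in UC (n = 5) and 0.12 ± 0.33 in UU (n = 4), and the groups overlapped. Over all genes tested the same mean lay between -0.0745 (CC replicate 2) and 0.0488 (UU replicate 4), and was 0.0343 in UU replicate 1.

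**Figure D2:**
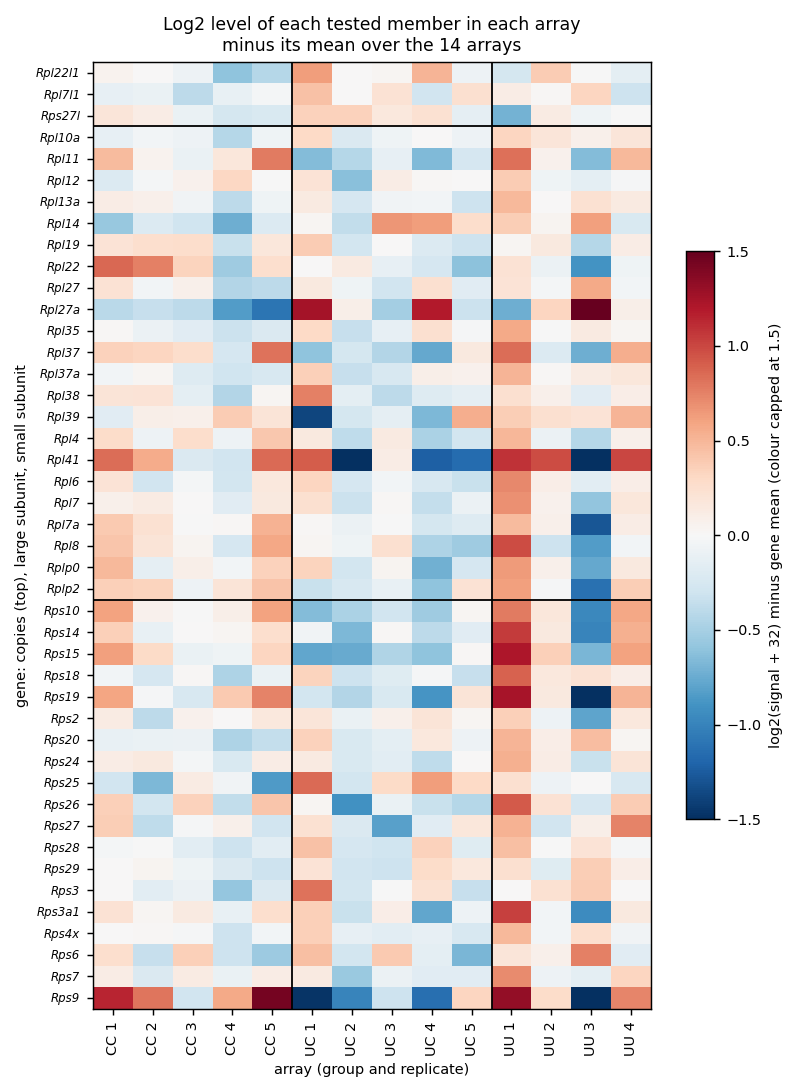
Log2 level of each of the 44 tested genes (rows; copies, then large, then small subunit) in each of the 14 arrays (columns) minus the gene's mean over the arrays, with red above and blue below and the colour capped at 1.5. UU replicate 1 is red in 41 of 44 rows, UC replicate 2 blue in 39, and UU replicate 3 mixes the darkest blue (Rpl41, Rps9, Rps19) with the darkest red (Rpl27a).

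Within groups the genes varied about as much as other genes. The median residual SD was 0.33 over the 44 genes and 0.32 over all genes tested, and 18 genes (40.9%) lay under 0.3, beside 42.1% of all genes. The largest residual SDs were those of Rpl41 (1.05), Rps9 (1.04) and Rpl27a (0.76), followed by Rps19 (0.75). Rpl41, the smallest ribosomal protein, a short basic peptide, had signals of 59206, 48501, 28426.5, 27063 and 59236 in CC, 61927, 11566, 35529, 14146 and 14783 in UC and 69959, 64933.5, 8579.9 and 66284 in UU. UU replicates 1, 2 and 4 lay above every other sample, and UU replicate 3 was the lowest of all 14. Its difference was -0.92 ± 0.57 in UC against CC and -0.07 ± 0.60 in UU against CC. With the ratio as a covariate these were -0.32 and 0.45, and without UU replicate 3 UU against CC was 0.67. Rps19, mutated in the most frequent form of Diamond-Blackfan anaemia, had signals of 18761, 12229.6, 10479, 16284 and 20811 in CC, 10265, 9151, 10629.7, 6694 and 14150.3 in UC and 29273, 13769.5, 3717 and 17713 in UU. Its highest and its lowest sample of all were both in UU, and the difference was -0.62 ± 0.41 in UC against CC and -0.25 ± 0.43 in UU against CC. With the ratio as a covariate these were 0.09 and 0.36, so that both turned their sign, as UU against CC did without UU replicate 3 (0.34).

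The 3′ over 5′ ratio of the arrays moved with some of these genes within groups. A limma fit of group means plus the ratio, added after the values were seen, gave a slope per unit of the ratio for each gene, adjusted over all 7436. 6 of the 44 genes fell with the ratio (13.6%, against 2.73% of all genes): Rps9 at -2.02 ± 0.33 (SE; limma adjusted p = 0.0183), Rps19 at -1.40 ± 0.27 (adjusted p = 0.022), Rps10 at -0.92 ± 0.17 (0.022), Rplp2 at -0.84 ± 0.18 (0.0325), Rpl11 at -0.78 ± 0.17 (0.0325) and Rpl7a at -0.74 ± 0.20 (0.0496). 1 gene rose with it, Rpl27a at 1.43 ± 0.27 (limma adjusted p = 0.022; 2.27%, against 1.52% of all genes).

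These slopes rest on few arrays. Without UU replicate 3, the array of highest ratio, limma called 0 of 44 slopes and 0% of all genes, and 9 of 44 had an unadjusted p under 0.05 (20.5%, against 8.22% of all genes). All 7 slopes kept their sign there, from -1.41 (Rps9) to -0.16 (Rpl7a), and 1.40 for Rpl27a. Without UU replicate 4, 1 was called (Rps9; 0.309% of all genes), and without CC replicate 3 or UC replicate 4, 4 were called (1.24% and 1.14% of all genes). With the replicate number as a block 0 of 44 slopes were called, with 0% of all genes called. With array medians set equal 3 were called (Rps9, Rps19 and Rpl27a; 0.726% of all genes). UC and UU also had higher mean ratios than CC, and the part of the ratio in the group differences was not tested beyond the values that follow. With the ratio as a covariate the median difference of the 44 genes was -0.03 between UC and CC, 0.19 in UU against CC, with 37 of 44 above 0, and -0.19 in UC against UU. The values of single genes moved more: with that covariate 13 of 44 turned their sign and 18 shrank by more than 1.5 times in UC against CC, 11 and 12 did so in UU against CC, and 0 and 3 in UC against UU. Without UU replicate 3, 12 of 44 (UU against CC) and 5 of 44 (UC against UU) turned their sign. Without the 3 arrays of highest ratio the medians were -0.17, 0.26 and -0.36.

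**Figure D3:**
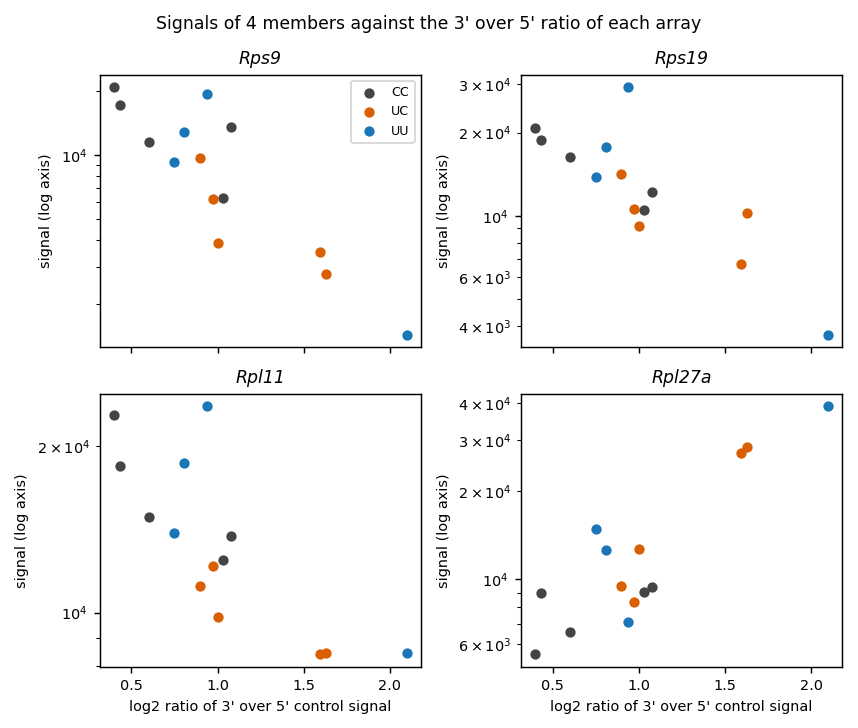
Signal (log axis) of Rps9, Rps19, Rpl11 and Rpl27a in each of the 14 arrays against the log2 ratio of 3′ over 5′ control probe sets of that array, coloured by group. The 3 arrays with a ratio over 1.5 hold the 3 highest Rpl27a signals, and the array at 2.10 (UU replicate 3) holds the lowest Rps9 and Rps19 signals.

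The same was asked of the epididymal marker level. Its slope within groups was called for 0 of 44 ribosomal protein genes, beside 610 of all genes (8.2%), by the same limma fit with that level in place of the ratio, and 3 of the 44 had an unadjusted p under 0.05 (6.82%, against 22.7% of all genes). The smallest adjusted p among the 44 was 0.123 (Rps6). Without the 4 arrays of low epididymal marker sums the medians were -0.11 (UC against CC), 0.08 (UU against CC) and -0.14 (UC against UU).

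The acidic stalk of the large subunit, which recruits elongation factors, was represented by Rplp0 and Rplp2. Rplp0, often used as a reference gene in expression assays of fat, had signals of 42013, 27269, 31826, 29092 and 38079.6 in CC, 37792, 24724, 30656, 18098 and 25174 in UC and 46562, 31526.5, 17533 and 33066 in UU. The groups overlapped, with UC replicate 4 and UU replicate 3 lowest, and the differences were -0.33 ± 0.25 (UC against CC), -0.13 ± 0.26 (UU against CC) and -0.20 ± 0.26 (UC against UU). Rplp2 had -0.46 ± 0.26, -0.28 ± 0.28 and -0.18 ± 0.28 in the same order. Its signals were 24692 to 35138 in CC, 17144 to 30296 in UC and 11998.5 to 39941 in UU. UC against CC with the ratio as a covariate was -0.04 for Rplp0 and -0.03 for Rplp2, and UU against CC was 0.12 and 0.09. Without UU replicate 3 UU against CC was 0.14 and 0.08, so that both turned their sign.

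Rps6 is the small subunit protein that S6 kinase phosphorylates downstream of mTOR. Its signals were 2623, 1724, 2819.5, 1757 and 1493 in CC, 3019.5, 1804, 2877, 1973 and 1354 in UC and 2498, 2311, 3724 and 1941 in UU, with the groups overlapping throughout. Its differences were 0.06 ± 0.25 in UC against CC and 0.33 ± 0.26 in UU against CC. Rpl13a, a large subunit protein that also serves as a reference gene, had -0.04 ± 0.15 in UC against CC, a value that was 0.02 with array medians set equal, and 0.28 ± 0.16 in UU against CC. Its signals on this brightest probe set were 36496 to 52146 in CC, 38880.4 to 52945 in UC and 48379.8 to 67129 in UU. The Rpl13a probe sets above the filter ran from -0.56 to 0.06 in UC against CC, from -0.04 to 0.28 in UU against CC and from -0.60 to -0.10 in UC against UU. Rps29, a zinc-binding protein of the small subunit head, had 0.12 ± 0.16 in UC against CC, which was -0.12 after quantile normalization, and 0.24 ± 0.17 in UU against CC. Rps29 signals ran from 64219 to 81871.5 in CC, 64179.9 to 96377 in UC and 70429 to 102876 in UU. Rps4x, the X-linked form of a small subunit protein, had 0.01 ± 0.16 in UC against CC (-0.10 after quantile normalization) and 0.23 ± 0.16 in UU against CC.

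The other genes are given more briefly, first the small subunit. Rps2, which lies beside the mRNA entry, had 0.08 in UC against CC and -0.08 in UU against CC. Rps3a1, which faces the mRNA exit and the initiation factor eIF3, had -0.25 and -0.06. Rps14, deleted on 1 allele in the human 5q- syndrome, had -0.36 and 0.08. Rps7 and Rps24, both assembly proteins altered in Diamond-Blackfan anaemia, had -0.18 and -0.15 in UC against CC and 0.19 and 0.10 in UU against CC. Rps28, at the mRNA exit, had 0.14 and 0.29. In UC against UU these 6 genes lay between -0.44 (Rps14) and 0.16 (Rps2). On the brightest probe sets none of them had an unadjusted limma p under 0.05 in any comparison, and other probe sets of Rps7 and Rps24 are given below.

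Of the large subunit, Rpl4, whose long arm reaches the peptide tunnel, had -0.33 in UC against CC and -0.14 in UU against CC. Rpl8, near the peptidyl transferase centre, had -0.35 and -0.25, and Rpl7a had -0.34 and -0.39. Rpl6 had -0.06 and 0.24, and Rpl12, of the stalk base, -0.09 and 0.01. Rpl19, which bridges to the small subunit, had -0.19 and -0.14, and Rpl35, at the tunnel exit where the signal recognition particle docks, 0.17 and 0.34. Rpl27 had 0.09 and 0.29, and Rpl38, known from a mouse mutant with changed axial skeleton, 0.01 and 0.09. On the brightest probe sets none of these 9 genes had an unadjusted limma p under 0.05 in any comparison. Other probe sets of Rpl27 and Rpl35 gave other values. The dimmer Rpl27 probe sets lay below 0 in UC against CC, the lower one far below, with a slope on the 3′ over 5′ ratio of -1.44 ± 0.26. The Rpl35 probe sets above the filter ran from -0.47 to 0.25 in UC against CC and from 0.01 to 0.45 in UU against CC.

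3 copies of ribosomal protein genes could be set beside the gene they resemble. Rpl22l1 is a close relative of Rpl22 that Rpl22 represses and that takes its place on ribosomes of mice lacking Rpl22. Rpl22 signals were 19132, 17887, 13273, 7272 and 12605 in CC, 10627, 11583, 9672.5, 8868 and 6847 in UC and 12285, 9917, 5632 and 10114 in UU. Rpl22l1 signals were 18981, 18227, 17316, 11984 and 13551 in CC, 28082, 18262, 18596, 25902.5 and 17265 in UC and 15185, 23677, 18145 and 16466 in UU. For Rpl22 the 2 highest samples were in CC, and for Rpl22l1 the 3 highest were in UC and UU, with the groups overlapping for both. Rpl22 had -0.50 ± 0.26 in UC against CC and -0.54 ± 0.28 in UU against CC, and Rpl22l1 0.43 ± 0.19 and 0.20 ± 0.20.

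The level of a copy minus that of its partner was compared between groups by a two-sided exact permutation test, a comparison added after the values were seen. The difference sets 2 probe sets against each other, so that only its change between groups can be read. For Rpl22l1 minus Rpl22 it was 0.24 ± 0.31 in CC (SD, n = 5), 1.17 ± 0.37 in UC (n = 5) and 0.99 ± 0.61 in UU (n = 4). UC exceeded CC by 0.93 (exact permutation p = 0.0159, adjusted over 9 tests 0.0714), with 1 UC sample within the CC range, and UU exceeded CC by 0.74 (exact p = 0.0556, adjusted 0.167). UC exceeded UU by 0.19 (exact p = 0.587, adjusted 0.661). With the dimmer Rpl22 probe set in place of the brightest, UC exceeded CC by 0.69 (exact p = 0.0794), and UU against CC turned to -0.13 (exact p = 0.603). On that probe set UC exceeded UU by 0.82 (exact p = 0.0476), so the choice of probe set changed this comparison. On the brightest probe sets no comparison passed after adjustment, and the p on the dimmer one were not adjusted. On the brightest probe sets and with the ratio as a covariate, UC exceeded CC by 0.65 and UU exceeded CC by 0.50.

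Rpl7l1, a relative of Rpl7 that works in the nucleolus in large subunit assembly, had signals of 2034.5, 2071, 1688, 2055 and 2183 in CC, 3036, 2224, 2583, 1812 and 2639 in UC and 2408, 2242, 2793 and 1787 in UU. Rpl7 itself had -0.14 ± 0.20 in UC against CC, and Rpl7l1 0.27 ± 0.16. The level of Rpl7l1 minus that of Rpl7 was higher in every UC than in every CC sample, by 0.41 (exact permutation p = 0.00794, the smallest that 5 against 5 can give; adjusted over 9 tests 0.0714). That difference was 0.19 with the ratio as a covariate. UU against CC differed by 0.14 (exact p = 0.794; -0.18 without UU replicate 3) and UC against UU by 0.27 (exact p = 0.357; 0.59 without that array). Rps27l, a p53 target that resembles Rps27, had 0.25 ± 0.17 in UC against CC and 0.35 ± 0.18 in UC against UU, and Rps27 -0.11 ± 0.23 and -0.43 ± 0.24. Rps27l minus Rps27 differed by 0.36 in UC against CC (exact p = 0.206), -0.42 in UU against CC (exact p = 0.270) and 0.78 in UC against UU (exact p = 0.103).

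**Figure D4:**
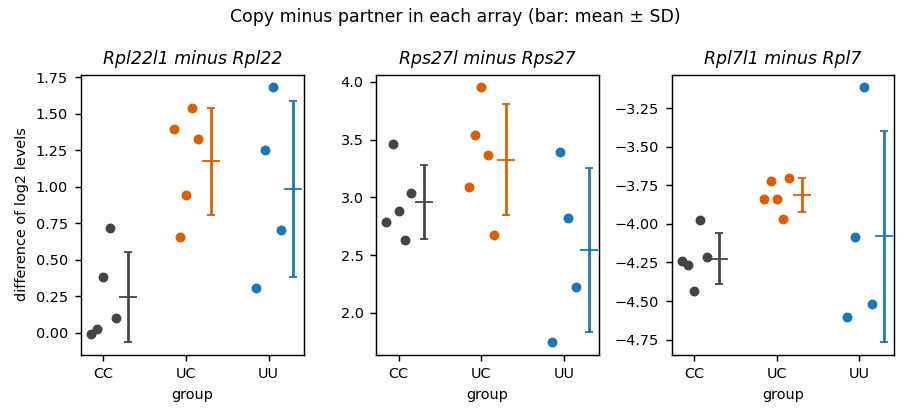
Log2 level of each copy minus that of its partner in each array (points), with the mean and SD of each group (bar), for Rpl22l1 and Rpl22, Rps27l and Rps27, and Rpl7l1 and Rpl7. The UC points lie above the CC points throughout for Rpl7l1 minus Rpl7 and in 4 of 5 samples for Rpl22l1 minus Rpl22, and UU has the largest SD in each panel.

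Probe sets of the same gene did not always give the same value. Of the 99 probe sets 81 passed the signal filter, and 19 genes had more than 1 among them. The range of the difference between probe sets of a gene had a median of 0.62 (UC against CC), 0.43 (UU against CC) and 0.25 (UC against UU). The probe sets differed in sign for 7 of 19 genes (UC against CC), 14 (UU against CC) and 1 (UC against UU). The dimmer probe sets lay below the brightest of their gene in 22 of 37 cases (UC against CC), 26 (UU against CC) and 23 (UC against UU).

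The largest range in UC against CC was that of Rpl37a. Its brightest probe set gave 0.13 ± 0.20 and the next -1.25 ± 0.43, with signals of 18040.4, 15938, 11050.5, 19382 and 23865.5 in CC, 3715, 6119, 7068, 7121 and 16458 in UC and 33287, 10613, 5463 and 21941 in UU for the latter. On that probe set UC was low except for replicate 5, and UU held both the highest sample and the second lowest. Rps15 had a dimmer probe set at -1.70 ± 0.51 in UC against CC and -1.42 ± 0.54 in UC against UU. Its signals were 16055.5, 10485, 5291, 9079 and 14400.1 in CC, 1692, 3021, 3350.4, 2735 and 6592 in UC and 21561.5, 9826, 1968 and 12374 in UU. UU replicate 1 was the highest of all its samples and UU replicate 3 the second lowest, after UC replicate 1. Rps7 gave -0.18 ± 0.21 and -1.09 ± 0.42 by its 2 probe sets, and the probe sets of Rps24 ran from -0.75 to 0.18.

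The probe sets that gave the low values in UC also had steep slopes on the 3′ over 5′ ratio. In a fit with every probe set as a row, the slope was -1.28 ± 0.34 for the low probe set of Rpl37a and 0.14 ± 0.20 for the brightest, -1.82 ± 0.31 for the low one of Rps15 and -0.79 ± 0.22 for the brightest, and -1.39 ± 0.30 for the low one of Rps7 and -0.13 ± 0.21 for the brightest. For Rps10 the slope was -1.32 ± 0.22 on the probe set lowest in UC against CC, -0.92 ± 0.18 on the brightest and -0.07 ± 0.18 on another. With the mean of its probe sets the Rps10 slope was -0.52 and was not called (limma adjusted p = 0.201). Which part of the mRNA each probe set reads was not used here. The brightest probe sets whose names end in _a_at, which can read several transcripts of 1 gene, had a median difference of -0.33 in UC against CC (17 genes), those ending in _x_at, which can also bind other sequences, 0.06 (15 genes), and the plain _at ones -0.09 (11 genes). In UC against UU these medians were -0.20, -0.23 and -0.05.

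**Figure D5:**
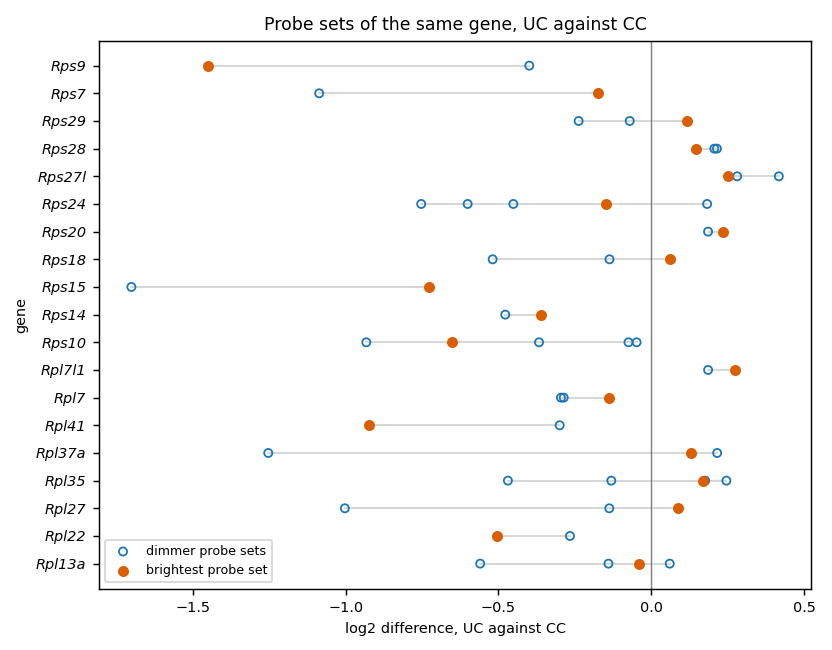
Log2 difference of UC against CC for every probe set above the signal filter of the 19 genes with more than 1, the brightest filled and the others open, joined by a line for each gene. The longest lines are those of Rpl37a, Rpl27 and Rps9, and Rps15 holds the lowest point, at -1.70.

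A ribosomal protein symbol together with other symbols was carried by 90 probe sets above the filter. Such symbols included those of pseudogenes, and probe sets shared with genes described above were not set apart. These probe sets are therefore not a separate set of further genes, and their medians are no independent check. The medians were -0.10 in UC against CC (38 above 0), 0.17 in UU against CC (67 above 0) and -0.30 in UC against UU (5 above 0).

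Genes that work with the ribosome were described from 6 lists, in none of which a gene was called by limma in any comparison. For each list the number of genes at an unadjusted limma p under 0.05 is given beside its medians, to be read against the share of all genes, which was 8.75% (UC against CC), 16.4% (UU against CC) and 17.9% (UC against UU). Of the ribosomal proteins whose names lie outside the rule 2 of 4 were tested (1, 0 and 0 under 0.05 in UC against CC, UU against CC and UC against UU). Rpsa, which doubles as a laminin receptor, had 0.22 ± 0.14 in UC against CC and 0.25 ± 0.15 in UU against CC. Fau, whose product is cut to give a ubiquitin-like protein and Rps30, had -0.78 ± 0.30 and -0.10 ± 0.32, with signals of 12760.5, 10669.6, 6751, 8698 and 14646 in CC, 6057, 3712, 5123, 8386 and 8000.0 in UC and 12369.8, 12178, 4600.4 and 12218.5 in UU. The 4 lowest Fau signals were in UC or in UU replicate 3.

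Of 10 elongation factor genes 6 were tested and had medians of -0.37 (UC against CC), -0.08 (UU against CC) and -0.36 (UC against UU) (2, 0 and 2 genes under 0.05). Eef2, which moves the ribosome along the mRNA, had -0.69 ± 0.25 in UC against CC (limma adjusted p = 0.518), and Eef1d, of the factor that recharges eEF1A, -0.51 ± 0.18 in UC against CC and -0.51 ± 0.19 in UC against UU. Of 39 initiation factor genes 31 were tested, with medians of -0.07, -0.04 and -0.05 in the same order (6, 2 and 4 genes under 0.05, or 19.4%, 6.45% and 12.9%). Eif3m, a subunit of eIF3, had -0.64 ± 0.23 in UC against CC and -0.75 ± 0.25 in UC against UU (limma adjusted p = 0.147). Pabpc1, the poly(A)-binding protein, whose mRNA also carries the pyrimidine tract, had -0.48 ± 0.21 in UU against CC. Eif3h had -0.50 ± 0.20 in UC against CC, Eif2s3x -0.39 ± 0.17 in UU against CC and Eif1a 0.36 ± 0.15 in UC against UU.

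Of 47 ribosome assembly genes 34 were tested, with medians of 0.04, 0.02 and -0.04 (6, 4 and 2 genes under 0.05, or 17.6%, 11.8% and 5.88%). Wdr43, of the small subunit processome, had 0.66 ± 0.18 in UC against CC and 0.65 ± 0.19 in UU against CC, and Nol6 of the same complex 0.72 ± 0.21 in UC against CC (limma adjusted p = 0.458). Utp4 had 0.41 ± 0.17 in UU against CC. In UC against UU the smallest p of this list were those of Rrp1 (-0.49 ± 0.18) and Fbl (-0.49 ± 0.20), both lower in UC. Of 16 RNA polymerase I genes 8 were tested, with medians of -0.06, 0.14 and -0.23 (0, 0 and 1 gene under 0.05). Polr1d, shared by polymerases I and III, had 0.34 ± 0.17 in UC against CC, and Rrn3, which brings the polymerase to the ribosomal RNA promoter, 0.43 ± 0.24 in UU against CC. The list of 26 regulators of the translation of these mRNAs also held the transcription factors Myc, Mycn and Max. Of its genes 20 were tested, with medians of -0.13, -0.04 and -0.11 (4, 4 and 3 genes under 0.05). Deptor, an inhibitor of mTOR, had 0.79 ± 0.31 in UC against CC. Pdcd4, an inhibitor of the helicase eIF4A, had 0.68 ± 0.22 in UU against CC, and Eif4ebp2, a repressor of eIF4E, -0.60 ± 0.20. Rragc, a GTPase that carries the amino acid signal to mTOR, had 0.72 ± 0.20 in UC against UU (limma adjusted p = 0.0925), the lowest adjusted p of the named genes of these lists. In the same comparison Mycn had -1.26 ± 0.44 (limma adjusted p = 0.17). Lamtor1 had 0.49 ± 0.20 in UC against CC.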

How the data were processed

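RNA of 14 epididymal fat samples was read on 1 Affymetrix array each. The values used are the intensity (signal) of each probe set that the authors deposited. The submitters' processing notes name MAS5 and version 1.3 of GCOS. The trimmed mean of every array lay between 1500.45 and 1500.57 (2% cut at each end), so the authors had scaled each array to a common level. MAS5 detection calls were not used here, and the depth of an array has no count: the number of arrays limits the precision.

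Of 22690 probe sets, 20380 had 1 gene symbol in the platform annotation (20351 updated to RefSeq symbols by Entrez ID, 29 kept), 691 several, 1555 none and 64 were controls. Each of 12393 genes was represented by its brightest probe set, levels were log2(signal + 32), and the dimmest 40% of genes were left out. limma 3.58.1 in R 4.3.3 fitted group means to all 14 arrays (11 residual degrees of freedom, trend in the prior variance), with two-sided tests and Benjamini-Hochberg adjustment over all 7436 genes at 0.05. The fit was tested on simulated data. Figures were drawn with matplotlib 3.10.9 in Python 3.11.15.

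The genes, lists and tests were chosen with earlier results of these data known. Genes named singly were those of the 5 smallest p in a comparison, of the 3 largest residual SDs, of a panel of often used ribosomal proteins and copies with their partners, and those next to the signal filter. Of each pathway list they came from the 2 of smallest p in a comparison, not all of which are named. Further genes were given to complete the list or chosen after their values were seen. Alternatives covered the pseudocount, the filter, the scaling, the choice of probe set, array weights, the trend, the arrays fitted, a replicate block, covariates and each array left out in turn.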

Additional observations from a re-analysis of the deposited data

Results flagged for a closer look

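Single samples stood apart from the rest of their group in 6 of 78 groups examined (25 genes and their mean level, each in CC, UC and UU), where Dixon's gap ratio of the log2 levels passed its 95% critical value (0.829 for 4 samples, 0.71 for 5). Chance gives about 1 in 20 groups if these are independent and not chosen by their values. Here the genes share the same arrays, and Rpl41, Rps9 and Rpl27a were named for their large residual SD, so the count cannot be judged against that share. Each case is a signal of a gene described above.

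In UU replicate 1 the Rps18 signal was 93664.9, while the other UU samples lay between 54149.4 and 58992.4. In UU replicate 3 the Rpl41 signal was 8579.9, while the others lay between 64933.5 and 69958.8. UU replicate 1 was the array with 41 of 44 ribosomal protein genes above their own mean, and UU replicate 3 the array of highest 3′ over 5′ ratio.

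In CC replicate 4 the Rps4x signal was 36680.6, against 44276.5 to 46297.8 in the other CC samples, and the Rpl10a signal was 27920.3, against 34471.5 to 36422.3. In UC replicate 1 the Rps4x signal was 58604.8, against 38583.5 to 41967.4 in the other UC samples. In CC replicate 3 the Rpl7l1 signal was 1688.4, against 2034.5 to 2182.8 in the other CC samples.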

How the results depend on the processing

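No ribosomal protein gene was called in UC against CC or UU against CC under any alternative run. In UC against UU the count was 0 under each, except that leaving out 1 array gave 0 to 1, the 1 being Rps15 without UU replicate 3. The share of all genes called in that fit is not given here. With the replicate number as a block the medians were -0.10, 0.17 and -0.20 in UC against CC, UU against CC and UC against UU, and 0 genes were called, while the calls among all genes in UC against UU went from 60 to 94. Arrays of the same number deviated together with a median correlation of 0.07 over 13 pairs (-0.32 to 0.49), so the numbers were not taken to pair the samples.

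The count of genes with a called slope on the 3′ over 5′ ratio, 7 in all, was 3 with array medians set equal (0.726% of all genes called), 4 with the mean of probe sets, dim ones included (2.62%), 24 with array weights (31.6%), 0 with the replicate block (0%; 16 of 44 at an unadjusted p under 0.05, against 18.9% of all genes) and 0 to 9 when 1 array was left out. The causes were not tested.

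The median difference kept its sign under every alternative, from -0.22 (x and s probe sets left out) to -0.03 (ratio covariate) in UC against CC, from 0.05 to 0.26 in UU against CC and from -0.36 to -0.06 in UC against UU. Leaving out 1 array took it from -0.20 to -0.05, from 0.03 to 0.26 and from -0.32 to -0.11. Of 2082 other values of the 44 genes, 25 moved by more than the spread between replicates and 111 changed sign, and of 1848 values with 1 array left out 72 changed sign. With 4 or 5 arrays a group the median standard error of a difference was 0.20 to 0.22.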
